A study of Mus musculus with 167 samples.

Results

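Htt, the gene whose CAG repeat expands in Huntington's disease, was followed in mouse liver over all 21 groups of knock-in genotype and age. It is 1 gene of the 39179 in the deposited tables, taken by its symbol and identifier (Htt, ENSMUSG00000029104), and it passed the low-count filter at each age. Polyadenylated RNA was sequenced in 167 libraries from livers of strain C57BL/6 mice that were heterozygous for a knock-in allele of Htt, or wild type (WT). The knock-in lines Q80, Q92, Q111, Q140 and Q175 carry expanded repeats and are named by their repeat length, Q20 carries a repeat of 20, and WT animals carry no knock-in allele. Livers were taken at 2, 6 and 10 months. The groups hold 8 libraries, 4 per sex, except that the labels of Q80 give 3 females with 5 males at 2 months and 4 females with 3 males at 10 months. Per the labels each WT animal was housed with Q20 mice, so Q175 or Q111 livers were set against WT animals of the Q20 colony and not of their own. Nothing in the labels says whether breeding pairs differed between lines, and differences between colonies and between alleles cannot be told apart.

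Huntingtin is a very large scaffold protein built of helical HEAT repeats that takes part in vesicle transport along microtubules, endocytosis and autophagy, and its gene is expressed in nearly all tissues. The CAG repeat lies in the first exon, where it encodes a run of glutamines near the start of the protein, and longer repeats go with earlier onset of the disease in people. Knock-in mice carry the expanded tract in their own Htt gene, under its own promoter, so a heterozygote makes RNA from 1 knock-in and 1 normal allele. Htt lies on the plus strand of chromosome 5 (GRCm38 chr5:34761740-34912534). Its protein-coding transcript in GENCODE M21 has 67 exons, 13215 bases and 9360 coding bases without the stop codon. The sequence below is the coding part of exon 1 of the reference mouse gene (GRCm38 chr5:34761907-34762109, plus strand), which holds its CAG tract. The exon sequences of the knock-in alleles were not in the sources used here and may differ from it beyond the repeat. Capitals mark the run of 7 glutamine codons, codons 18 to 24 (chr5:34761958-34761978), of which 1 is CAA and the others are CAG. A longest run of 10 prolines follows.

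Htt exon 1, coding part: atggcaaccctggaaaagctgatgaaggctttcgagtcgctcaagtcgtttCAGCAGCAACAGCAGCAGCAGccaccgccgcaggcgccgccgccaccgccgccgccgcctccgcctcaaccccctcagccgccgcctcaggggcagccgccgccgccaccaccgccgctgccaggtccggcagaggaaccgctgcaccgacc

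The deposited values are 1 number per gene and library, so the knock-in and the normal allele were counted together, and a lower sum does not say which allele gave less. The sources used here do not say how reads over the repeat were placed. Libraries summed to between 32025244 and 57151736 expected counts (median 38663519), of which Htt had between 496 and 1679 counts per library. In FPKM, a value per length of transcript, Htt stood above 52.3 to 66.1% of protein-coding genes, a middling level in liver. Markers of hepatocytes summed to between 67100 and 147000 CPM per library (counts scaled to a common library size), and 10 libraries with more Krt19 (bile duct), Acta1 (muscle) or Hba-a1 (red cells) than the others were left out in an alternative. At 6 months all 48 knock-in libraries have names of another series than the 8 WT libraries, so there the library series and the presence of a knock-in allele cannot be told apart. At 2 and 10 months most names carry a D7 index (6 of 8 WT and 42 of 48 knock-in libraries at 2 months, 7 of 8 and 43 of 47 at 10 months), and the others carry none. With D7 libraries alone no call of a line against WT or of a slope changed, and Q175 against WT had folds of −0.43 and −0.68, with adjusted p-values of 0.00744 and 0.000114. CPM were scaled with TMM factors, folds are given as log2 with their standard error (SE), and adjusted p-values come from the quasi-likelihood test of edgeR, with Benjamini-Hochberg adjustment over every gene tested. A gene with an adjusted p under 0.05 is named as called.

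Htt was lower in Q175 livers than in WT livers at 2 and at 10 months, and at 10 months in Q111 livers as well. At 10 months the 4 Q175 females had 14.4, 19.6, 13.2 and 15.2 CPM and the 4 Q175 males 19.1, 24.1, 23.6 and 18.8 CPM. The WT females of that age had 30.3, 29.4, 31.9 and 24.2 CPM and the WT males 32.7, 31.4, 41.2 and 21.8 CPM. In females the groups did not overlap, whereas the lowest WT male, M4, stood below 2 of the Q175 males. Htt averaged 18.5 ± 4.04 CPM in Q175 and 30.4 ± 5.83 CPM in WT (SD, n = 8 each), which is −0.73 ± 0.10 on the log2 scale (SE, adjusted p = 1.72e-05). The fitted level in Q175 was thus 60.2% of that in WT, with a 95% confidence interval from 52.5 to 69.0%. Of the 15689 genes tested in this contrast 0.484% were called lower, and Htt had the smallest p of all. Leaving out the libraries with muscle, blood or bile duct RNA, of which the Q175 group held F3, F4 and M4, gave −0.63 (adjusted p = 0.0221). The muscle markers summed to at most 620 CPM in the Q175 group of 10 months and to at most 0.307 CPM in WT. In whole tissue, fewer cells that express Htt and less Htt RNA per cell cannot be told apart.

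At 2 months Htt ran from 16.9 to 24.4 CPM in Q175 with a median of 21.4 CPM, and from 24.3 to 34.2 CPM in WT with a median of 27.3 CPM. The groups met at a single point: the highest Q175 library, the male M4 at 24.4 CPM, stood just above the lowest WT library, the female F1 at 24.3 CPM. The means were 21.1 ± 3.13 CPM in Q175 and 27.8 ± 3.22 CPM in WT (SD, n = 8 each), and the log2 fold change was −0.40 ± 0.07 (SE, adjusted p = 0.00376). That is 75.7% of the WT level, with a 95% confidence interval from 68.6 to 83.4%, in a contrast in which 0.297% of 15137 genes were called lower. Without the libraries with bile duct RNA the fold was −0.40 (adjusted p = 0.00589). The fold of Q175 against WT at 10 months differed from that at 2 months by −0.33 ± 0.12, which was not called (adjusted p = 0.17).

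**Figure D1:**
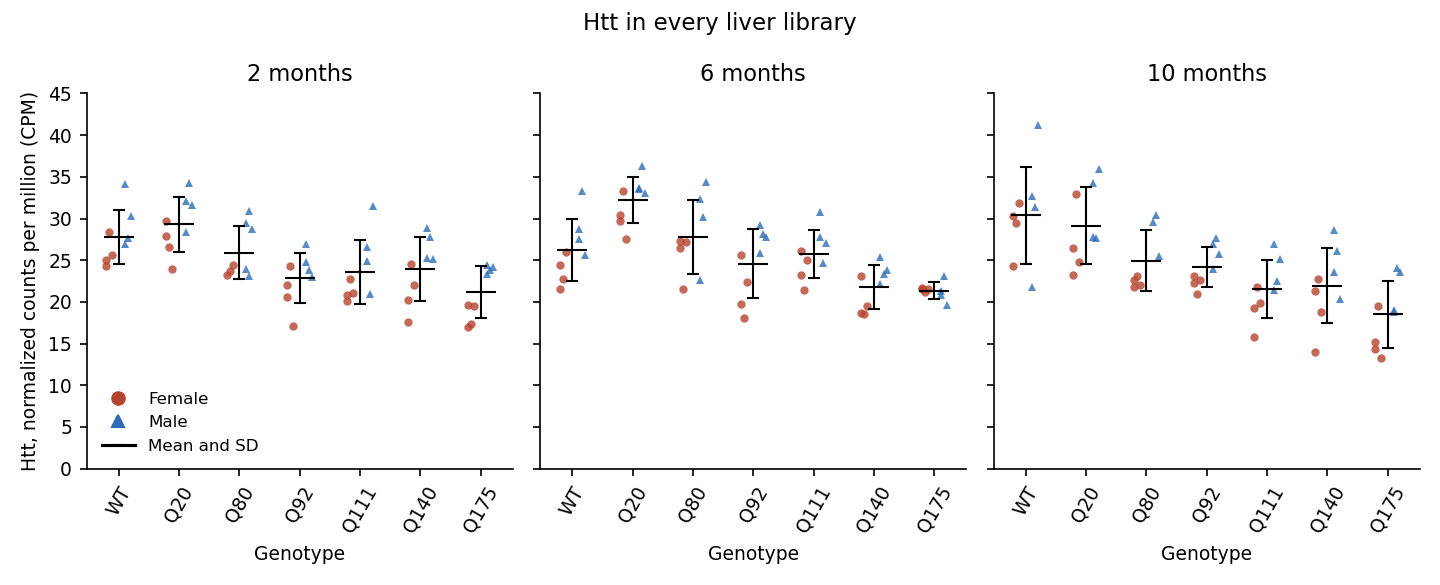
Htt in CPM (vertical axis, TMM-normalized) in each of the 167 libraries, by genotype along the horizontal axis and by age in 3 panels. Circles are females, triangles males, and bars give the group mean and SD. At 10 months the means run from 30.4 CPM in WT down to 18.5 CPM in Q175, and within most groups the males stand above the females.

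The lines with shorter repeats stood between these ends. At 10 months Q111 averaged 21.6 ± 3.47 CPM (SD, n = 8), against 30.4 CPM in WT, which is −0.50 ± 0.10 on the log2 scale (SE, adjusted p = 0.0023), with 0.0382% of genes called lower. Q140 had nearly the same size of difference, −0.48 ± 0.10, but was not called (adjusted p = 0.0738), although only 1 gene of 15689 had a smaller p. The adjusted p of Htt depends on how many other genes pass with it, and in Q140 0% of genes were called lower (252 at an unadjusted p under 0.05, and 5 called by DESeq2 in either direction), so the calls of Q111 and Q140 are no sign that these lines differ. Set against each other, Q140 and Q111 differed by 0.02 ± 0.10 (adjusted p = 0.984). Leaving out the WT male M4, the lowest WT library, gave −0.55 in Q140 (adjusted p = 0.00261) and leaving out the WT female F4 −0.50 (adjusted p = 0.0387).

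Q92 and Q80 at 10 months had −0.33 ± 0.10 and −0.27 ± 0.10 against WT (adjusted p = 0.0819 and 0.604), with 0.236% of genes called lower in Q92 and 0% in Q80 (486 at an unadjusted p under 0.05, and 11 called by DESeq2 in either direction). Without the WT male M4 the fold in Q92 was −0.41 (adjusted p = 0.0326). At 2 months no line but Q175 was called. The log2 fold changes were −0.13 ± 0.07 in Q80 (adjusted p = 0.639), −0.29 ± 0.07 in Q92 (adjusted p = 0.126), −0.24 ± 0.07 in Q111 (adjusted p = 0.391) and −0.22 ± 0.07 in Q140 (adjusted p = 0.165). The share of genes called lower was 0.0132% in Q80, 0.00661% in Q92, 0% in Q111 (527 at an unadjusted p under 0.05, and 4 called by DESeq2 in either direction) and 0.0132% in Q140.

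As a test of Htt by itself, an exact two-sided permutation of genotypes within sex was run for the 12 contrasts of 2 and 10 months and adjusted over them. By this test Htt was lower at 2 months in Q92 (exact permutation adjusted p = 0.00488), Q111 (0.0133), Q140 (0.0133) and Q175 (0.00488), the last at the smallest p that the design allows (0.000408 before adjustment). At 10 months it was lower in Q92 (exact permutation adjusted p = 0.0183), Q111 (0.00858), Q140 (0.0133) and Q175 (0.00488). Q80 did not pass at either age (exact permutation adjusted p = 0.111 at 2 months and 0.0609 at 10 months). The 95% confidence interval of its level was 82.7 to 100.5% of WT at 2 months and 71.9 to 95.3% at 10 months.

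Q20, the knock-in allele without an expansion, was close to WT at 2 and 10 months. At 2 months the Q20 livers ran from 24.0 to 34.3 CPM and the WT livers from 24.3 to 34.2 CPM. The log2 fold change was 0.08 ± 0.07 (adjusted p = 0.999), with 0% of genes called lower (207 at an unadjusted p under 0.05, and 1 called by DESeq2 in either direction). At 10 months the Q20 livers ran from 23.3 to 35.9 CPM and the WT livers from 21.8 to 41.2 CPM, and the log2 fold change was −0.06 ± 0.10 (adjusted p = 1), with 0% called lower (172 at an unadjusted p under 0.05, and 6 called by DESeq2 in either direction). The 95% confidence intervals, 95.7 to 116% of the WT level at 2 months and 83.5 to 110% at 10 months, bound the difference that these libraries allow.

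At 6 months Q20 stood above WT and Q175 below it. Q20 ran from 27.6 to 36.3 CPM and WT from 21.5 to 33.4 CPM. The log2 fold change of Q20 against WT was 0.30 ± 0.07 (adjusted p = 0.00114), in a contrast in which 17.9% of 15640 genes were called higher. Q140 had −0.27 ± 0.07 (adjusted p = 0.00417) and Q175 −0.29 ± 0.07 (adjusted p = 0.00218), among 13.2 and 12.6% of genes called lower. Q80, Q92 and Q111 had 0.08, −0.10 and −0.02 and were not called. Allele and library series cannot be told apart in these contrasts, while the knock-in lines of 6 months share a series and can be compared among themselves.

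**Figure D2:**
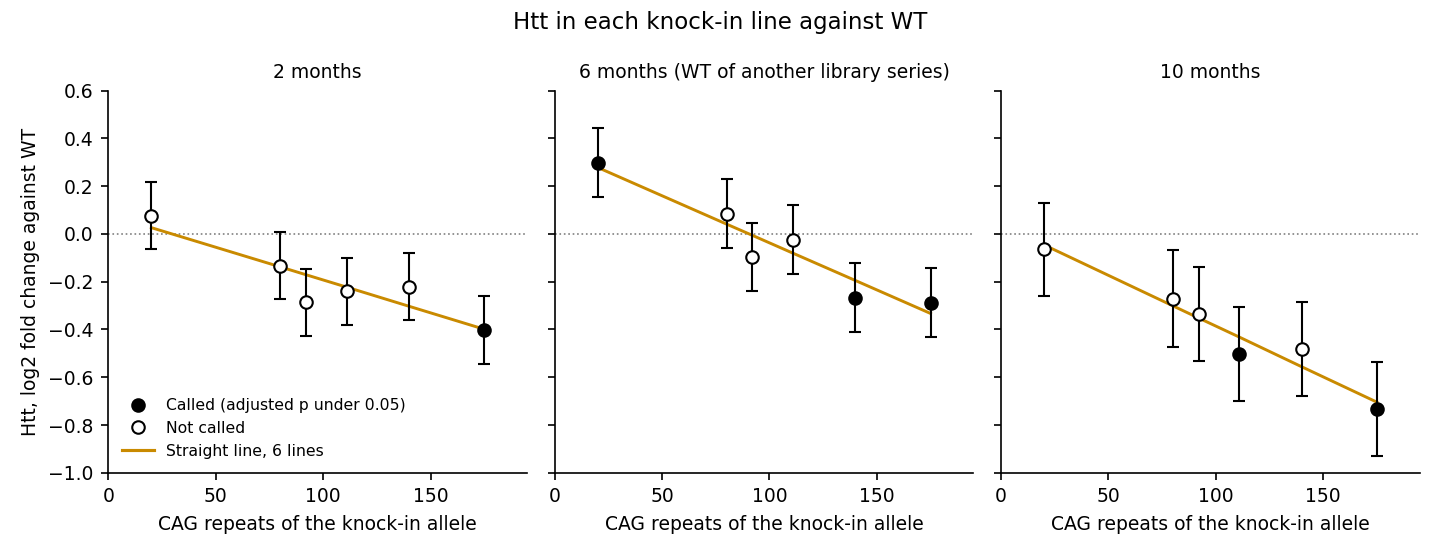
Log2 fold change of Htt against WT (vertical axis) for the 6 knock-in lines at their repeat length (horizontal axis), by age, with 95% confidence intervals. Filled points are called and open points are not, and the line is the straight line through the 6 knock-in lines. At 6 months, where WT libraries are of another series, Q20 lies at 0.30 and Q175 at −0.29, against 0.08 and −0.40 at 2 months.

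Within the knock-in lines Htt fell with repeat length at each age. Per 100 repeats it fell by 0.27 ± 0.04 on the log2 scale at 2 months, by 0.39 ± 0.04 at 6 months and by 0.42 ± 0.05 at 10 months, with adjusted p-values of 0.000554, 1.43e-07 and 4.05e-07. The share of genes called with a negative slope was 0.186, 3.80 and 0.0896% at these ages. By p, Htt had rank 2 of 15053 genes at 2 months, rank 1 of 15498 at 6 months and rank 6 of 15629 at 10 months. No departure from a straight line was called. A test of the departure of the 6 lines from it gave an adjusted p of 0.603 at 2 months, 0.243 at 6 months and 0.734 at 10 months, in fits in which 0.272, 17.5 and 7.11% of genes were called. The curvature term was 0.10 ± 0.08, 0.06 ± 0.08 and −0.04 ± 0.10 at 2, 6 and 10 months and was not called at any of them. A bend within these errors could not have been seen.

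Single lines strayed from the straight line by at most 0.11 on the log2 scale. Q92 lay below it at 2 and 6 months (−0.11 and −0.09) and 0.02 above it at 10 months. Q140 lay 0.08 above it at 2 months, 0.07 below it at 6 months and 0.07 above it at 10 months, so neither line kept its side. Extended to a repeat length of 0, the line met 106% of the WT level at 2 months and 103% at 10 months, and 128% at 6 months.

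Without Q20 the fall was called at 6 and 10 months. Over Q80 to Q175 the slope per 100 repeats was −0.19 ± 0.07 at 2 months and was not called (adjusted p = 0.497). It was called at 6 months, with −0.37 ± 0.07 (adjusted p = 0.0195), and at 10 months, with −0.45 ± 0.08 (adjusted p = 0.00103). The share of genes called with a negative slope in these fits was 0.0133, 0.208 and 2.67%. Between neighbouring lines 1 of 15 steps was called, Q80 against Q20 at 6 months, with −0.21 ± 0.07 (adjusted p = 0.0482) where 5.58% of genes were called lower. The step of Q140 against Q111 at 6 months was −0.24 ± 0.07 (adjusted p = 0.0567), and those of Q175 against Q140 were −0.18, −0.02 and −0.25 at 2, 6 and 10 months. Of the 3 steps of Q111 against Q92, those at 2 and 6 months were positive, 0.05 and 0.07, and that at 10 months was −0.17.

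The group means were ordered as follows. At 2 months the order was Q20 with 29.3 CPM, WT with 27.8, Q80 with 25.9, Q140 with 23.9, Q111 with 23.6, Q92 with 22.8 and Q175 with 21.1 CPM. At 6 months the order was Q20 with 32.2 CPM, Q80 with 27.8, WT with 26.2, Q111 with 25.8, Q92 with 24.6, Q140 with 21.8 and Q175 with 21.3 CPM. At 10 months it was WT with 30.4 CPM, Q20 with 29.1, Q80 with 24.96, Q92 with 24.2, Q140 with 21.9, Q111 with 21.6 and Q175 with 18.5 CPM. Among the expanded lines Q80 had the highest mean and Q175 the lowest at each age, and Q92, Q111 and Q140 changed places. The spread among the Q175 livers of 6 months was small, an SD of 0.982 CPM, where the other groups of all ages had 2.39 to 5.83 CPM.

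In FPKM the means were 1.72, 1.79 and 1.63 in Q175 at 2, 6 and 10 months, and 2.44, 2.73 and 2.46 in Q20. WT livers had 2.31, 2.13 and 2.52 FPKM at these ages. As a percentage of Q20 the Q175 mean was 70.4, 65.5 and 66.2% in FPKM and 72.1, 66.3 and 63.4% in CPM. With limma on log2(FPKM + 0.1) the fold of Q111 against WT at 10 months was −0.51 but was not called (adjusted p = 0.317).

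No difference of the slope between ages was called. The slope at 10 months differed from that at 2 months by −0.14 ± 0.07 (adjusted p = 0.282), in a fit in which 0.198% of genes were called in that direction. The slope at 6 months differed from that at 2 months by −0.12 ± 0.06 (adjusted p = 0.41), and that at 10 months from that at 6 months by −0.03 ± 0.07 (adjusted p = 0.916). The knock-in libraries of 6 months have names of another series than those of 2 and 10 months. In the comparisons with 6 months, age and library series thus cannot be told apart. Over all genotypes Htt at 10 months differed from that at 2 months by −0.07 ± 0.03 (adjusted p = 0.103), while 11.8% of genes were called lower at 10 months.

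In CPM, females had less Htt than males at each age. Females averaged 22.6, 23.8 and 22.1 CPM at 2, 6 and 10 months, and males 27.1, 27.6 and 26.8 CPM. The log2 fold change of females against males was −0.27 ± 0.04 (adjusted p = 2.55e-08), −0.21 ± 0.04 (adjusted p = 4.38e-06) and −0.30 ± 0.05 (adjusted p = 4.26e-06), with 27.7, 29.5 and 27.2% of genes called lower. The size rested on the scaling. The TMM factors averaged 1.03 to 1.05 in females and 0.950 to 0.970 in males, and with library totals in their place the difference was −0.18, −0.079 and −0.15, not called at 6 months (adjusted p = 0.105). With limma on FPKM it was −0.14 (adjusted p = 0.00243), −0.065 (adjusted p = 0.215) and −0.10 (adjusted p = 0.157). Over all genotypes together the direction was the same on each scale. Within single groups it was not: Q175 females of 6 months averaged 21.5 CPM and the males 21.2 CPM. In FPKM the female mean was above the male mean in Q20, Q111 and Q175 at 6 months and in WT and Q20 at 10 months. The slope with repeat length differed between females and males by −0.11 ± 0.09, 0.10 ± 0.09 and −0.12 ± 0.10 at 2, 6 and 10 months, and no such difference was called (adjusted p = 0.9, 0.69 and 0.592). At 2 months neither sex alone had a called slope, with −0.33 in females (adjusted p = 0.0524) and −0.22 in males (adjusted p = 0.106). Likewise Q175 against WT at 2 months was −0.50 in females alone (adjusted p = 0.0561) and −0.32 in males alone (adjusted p = 0.195), and at 10 months −0.89 in females and −0.57 in males (adjusted p = 0.103 in males). These fits have 4 libraries a group, apart from Q80, which has 3 females and 5 males at 2 months and 3 males at 10 months. The Q80 library M5 of 2 months, whose sex-linked genes went against its label, was counted as a male here.

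The genes nearest to Htt on chromosome 5 are given with their folds. Upstream lie Grk4, a kinase of G protein-coupled receptors, Nop14, a factor of small ribosomal subunit assembly, and Mfsd10, a transporter-like membrane protein. In Q175 against WT at 10 months their log2 fold changes were 0.31 ± 0.18, 0.09 ± 0.07 and 0.17 ± 0.11. Downstream lie Rgs12, a regulator of G protein signalling, Hgfac, a liver protease that activates hepatocyte growth factor, and Lrpap1, a chaperone of lipoprotein receptors, with −0.06 ± 0.14, −0.10 ± 0.08 and −0.10 ± 0.05. No adjusted p of these 6 genes was under 0.05 in Q175 against WT at 2 or 10 months or in the 3 slopes, contrasts in which 0.272 to 6.27% of all genes were called, so 0 of 6 is near that background. The lowest was that of Nop14 in Q175 at 2 months, 0.22 ± 0.06 (adjusted p = 0.0633). Msantd1, on the same strand, shares 4523 bases with the 3′ end of Htt. Its fold at 10 months was −0.02 ± 0.32, and reads of the shared stretch may have gone to either gene, so its values are uncertain.

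Genes that work with huntingtin or share its kind of mutation are given beside the share of all genes called. Of 30 partners of huntingtin or genes that it acts on, 28 were tested at 2 and 10 months. In Q175 against WT 1 was called at 2 months and 0 at 10 months, with medians of −0.002 and 0.002 on the log2 scale, where 0.595 and 1.38% of all genes were called in either direction. The 1 called was Hip1r, an actin- and clathrin-binding protein, with 0.48 ± 0.12 (adjusted p = 0.0487). The slopes of the 28 had 0 called at 2 and 10 months, where 0.272 and 0.595% of genes were called. At 6 months 29 partners were tested, of which 2 were called, where 6.27% of genes were called, so 2 of 29 is near that background. Rest, a repressor of neuronal genes that huntingtin holds in the cytoplasm, fell by 0.21 ± 0.05. Prpf40b, a splicing factor that binds huntingtin, rose by 0.19 ± 0.04. The 8 other genes with polyglutamine disease repeats, among them Atxn1, Atxn2, Atxn3 and Tbp, had 0 called in all 5 of these contrasts, and their median slopes lay between −0.05 and −0.02. With so few members, 0 of 8 is near the share of all genes called.

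A further 15 genes are modifiers of CAG repeat instability, mainly of mismatch and base excision repair, of which 14 were tested. Fen1, the flap endonuclease, was higher in Q175 than in WT at 2 months by 0.48 ± 0.10 (adjusted p = 0.0101) and rose with repeat length at that age by 0.25 ± 0.06 per 100 repeats (adjusted p = 0.0323). Its fold at 10 months was 0.28 ± 0.14 (adjusted p = 0.361). Msh6, a mismatch recognition subunit, rose with repeat length at 6 months by 0.16 ± 0.04 (adjusted p = 0.00899). The other 12, Msh3 and Fan1 among them, were called in none of the 5 contrasts. Of all genes 0.595% were called in Q175 against WT at 2 months and 0.272% in the slope of that age. In the slope at 6 months 6.27% of genes were called, so 1 of 14 there is near that background.

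Some markers of other cell types moved with repeat length in the same libraries as Htt. At 6 months 7 of 8 Kupffer cell markers fell with repeat length, by 0.45 to 0.74 per 100 repeats, where 3.80% of all genes were called lower. Their summed level ran from 88.9 to 425 CPM in Q175 and from 278 to 922 CPM in Q20. Median sums were 445 CPM in Q20, 375 in Q80, 296 in Q92, 368 in Q111, 295 in Q140 and 343 in Q175. WT, of another library series, had a median of 294 CPM. Q20 thus stood highest, and the expanded lines did not fall in order. At 2 months 3 of 8 markers of stellate cells and fibroblasts (Lum, Dcn and Pdgfra) fell, where 0.186% of all genes were called lower, with sums of 186 to 319 CPM in Q175 and 255 to 372 CPM in Q20. Of 8 endothelial markers 1 was called at 6 months, Cdh5 with a slope of −0.44 ± 0.14 (adjusted p = 0.0399), and the median of the 8 was −0.30. At 10 months 0 of the 16 Kupffer and stellate markers were called, where 0.595% of genes were called in either direction. The muscle genes Ttn and Tcap were the 2 of 5 muscle markers tested. Their slopes at 10 months were 7.57 ± 0.94 and 9.89 ± 1.06 per 100 repeats on the log2 scale (adjusted p = 5.82e-07 and 4.19e-08). The muscle markers summed to a median of 0.181 CPM in Q175 and 0.199 CPM in WT, but to 620 CPM in the highest Q175 library. Acta1 was at 274 CPM in the Q175 female F3 and 7.9 CPM in F4, so these slopes rest on single libraries. Without the libraries with muscle, blood or bile duct RNA the slope of Htt at 10 months was −0.37 (adjusted p = 0.000429). The part of these cells in the level of Htt was not tested.

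The co-varying genes were chosen by their correlation with Htt, so the values that chose them are a description and carry no test. Over the 95 knock-in libraries of 2 and 10 months, with the means of each age and sex removed and the differences between alleles kept, Pearson's r of log2 CPM was highest for Anapc1 (0.64), Exph5 (0.63), Zzef1 (0.61), Snrnp200 (0.59), Rbbp5 (0.59) and 2610507B11Rik (0.57). Among 11362 genes the central 95% of r lay between −0.328 and 0.374. Anapc1 encodes the largest subunit of the anaphase-promoting complex, Exph5 an effector of Rab27 in vesicle traffic, Zzef1 a zinc finger and EF-hand protein, Snrnp200 a helicase of the spliceosome and Rbbp5 a core subunit of histone H3 lysine methyltransferases. The libraries of 6 months had no part in the ranking by r, but they counted in the expression filters that set the candidates. Over the 48 knock-in libraries of 6 months r was 0.70 for Anapc1, 0.57 for Exph5, 0.54 for Zzef1, 0.70 for Snrnp200, 0.28 for Rbbp5 and 0.58 for 2610507B11Rik. At 6 months the central 95% of r over all genes was wider, from −0.532 to 0.533, so Zzef1 stood barely above it. Rbbp5 was the weakest of the 6 there and inside that range, at a value that 81.9% of genes stood below.

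The lowest r were those of Pdcd2 (−0.54), a chaperone of a small ribosomal subunit protein, Rab11a (−0.53), a GTPase of recycling endosomes, Sfr1 (−0.52), a recombination repair factor, H2afz (−0.50), the histone variant H2A.Z, Laptm4a (−0.50), a lysosomal membrane protein, and Ube2e3 (−0.49), a ubiquitin-conjugating enzyme. At 6 months the 6 genes had r between −0.76, for Pdcd2, and −0.41, for Laptm4a. Of these 6, only Laptm4a stood inside the central 95% of r of that age. Leaving out the 2 libraries farthest from the median of Htt changed the 12 values little, to between 0.53 and 0.62 for the first 6 and between −0.51 and −0.42 for the others. With FPKM in place of CPM the 6 highest had r of 0.36 to 0.64 and the 6 lowest −0.40 to −0.25, and on that scale 4 of the 6 highest were among the 50 highest and 1 of the 6 lowest among the 50 lowest.

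The genes with the highest r, with the differences between alleles kept, changed less with the allele than Htt did. Exph5 had slopes of −0.18 ± 0.09, −0.26 ± 0.08 and −0.32 ± 0.10 per 100 repeats at 2, 6 and 10 months and a fold of −0.41 ± 0.16 in Q175 against WT at 10 months. The slopes of Anapc1 were −0.04 ± 0.03, −0.06 ± 0.03 and −0.09 ± 0.04, and those of Zzef1 −0.03 ± 0.04, −0.05 ± 0.03 and −0.10 ± 0.04, far below those of Htt. Anapc1 averaged 43.1 CPM in Q175 and 43.0 CPM in WT at 2 months, but 40.6 and 45.45 CPM at 10 months. Its fold in Q175 against WT at 10 months was −0.17 ± 0.06. In the same contrast Zzef1 had −0.13 ± 0.08, Snrnp200 −0.26 ± 0.08, Rbbp5 −0.18 ± 0.06 and 2610507B11Rik −0.17 ± 0.07. The slope of Rbbp5 at 10 months was −0.15 ± 0.04.

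Within groups the strongest correlations were larger, but so was the spread of r over all genes. The central 95% of r at 2 and 10 months lay between −0.463 and 0.49 within groups. With the differences between alleles kept it lay between −0.328 and 0.374. The larger values are thus no sign of a closer tie of the named genes to Htt. Over 111 libraries of 2 and 10 months, with the mean of each genotype, age and sex removed, r was highest for Zzef1 (0.75), Gbf1 (0.71), Fat1 (0.71), Anapc1 (0.70), 2610507B11Rik (0.69) and Aak1 (0.69). Gbf1 activates Arf GTPases at the Golgi, Fat1 is a giant cadherin and Aak1 a kinase of the clathrin adaptor AP2. At the other end were Imp3 (−0.70), a factor of ribosomal RNA processing, Pdcd2 (−0.70), the ribosomal protein gene Rps23 (−0.64), an identifier without a symbol in the references used here (−0.64), H2afv (−0.64), another H2A.Z gene, and Naca (−0.63), a chaperone at the ribosome exit. Rps23, Naca and H2afz have near-identical copies elsewhere in the genome, so their counts are uncertain. At 6 months, over 56 libraries, r was 0.65 for Zzef1, 0.72 for Gbf1, 0.36 for Fat1, 0.70 for Anapc1, −0.60 for Imp3, −0.58 for Pdcd2 and −0.39 for Rps23. Across genes, which are not independent replicates, the r of 2 and 10 months and that of 6 months correlated at 0.797, against 0.606 with the differences between alleles kept.

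**Figure D3:**
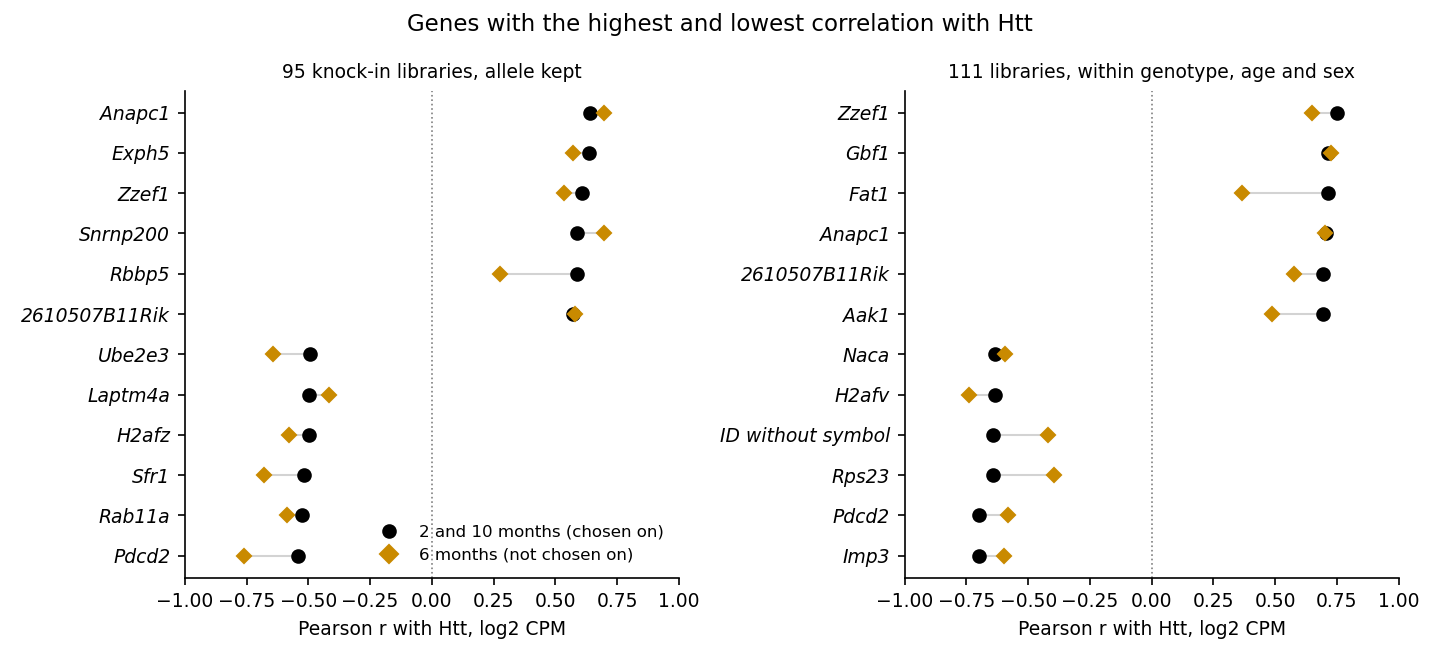
Pearson r with Htt (horizontal axis, log2 CPM) for the 6 highest and 6 lowest genes, with the differences between alleles kept (left, 95 knock-in libraries) and within genotype, age and sex (right, 111 libraries). Black circles are the libraries of 2 and 10 months that ranked the genes and diamonds those of 6 months, which had no part in the ranking. At 6 months each gene keeps its sign, from −0.76 for Pdcd2 to 0.72 for Gbf1.

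Within groups most genes at the upper end are longer than those at the lower end. Htt has 24438 bases of annotated exons, more than 99.8% of the genes compared. The 6 highest, Zzef1, Gbf1, Fat1, Anapc1, 2610507B11Rik and Aak1, have 8798 to 21453 exonic bases. Imp3, Pdcd2, Rps23 and H2afv have 924 to 2582, and Naca has 6805. With the differences between alleles kept the ends overlap in length, since Rbbp5 among the 6 highest has 3930 exonic bases and Ube2e3 among the 6 lowest 4390. Over the 11288 genes with a known length (99.3%), the median r within groups went up class by class, from −0.203 in the shortest 10% of genes (median length 1299 bases) to 0.196 in the longest 10% (median length 12513 bases). Spearman's rho between length and r was 0.422 across genes, 0.402 with the differences between alleles kept, and 0.211 and 0.226 at 6 months.

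**Figure D4:**
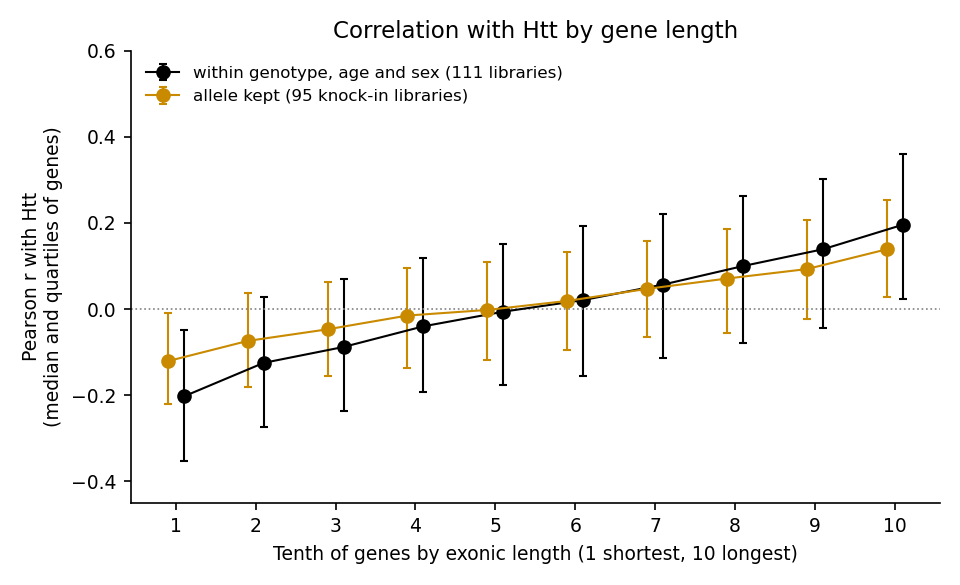
Pearson r with Htt (vertical axis, median and quartiles over about 1129 genes a class) in 10 classes of exonic length, shortest to longest (horizontal axis), for libraries of 2 and 10 months. Within groups (black) the median goes from −0.203 in class 1 to 0.196 in class 10, and with the differences between alleles kept (orange) from −0.121 to 0.139.

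A length index was computed for each library after these values were seen, as the mean log2 CPM of the longest 10% of genes, Htt left out, minus that of the shortest 10%, with the mean of each age removed. Within genotype, age and sex its r with Htt was 0.50 at 2 months (56 libraries, Spearman's rho 0.43), 0.27 at 6 months (56 libraries, rho 0.24) and 0.57 at 10 months (55 libraries, rho 0.48). Without the 2 libraries farthest on the index r was 0.38, 0.28 and 0.48. The index was prompted by the trend of r with length in the libraries of 2 and 10 months. Its r with Htt at those ages thus restates that trend and is no further support for it. Htt and the index come from the same library and share its RNA quality and its scaling, and the cause of their co-variation was not tested. The spread of Htt within groups, 0.18 on the log2 scale at 10 months, was 0.15 after a straight line on the index was removed.

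**Figure D5:**
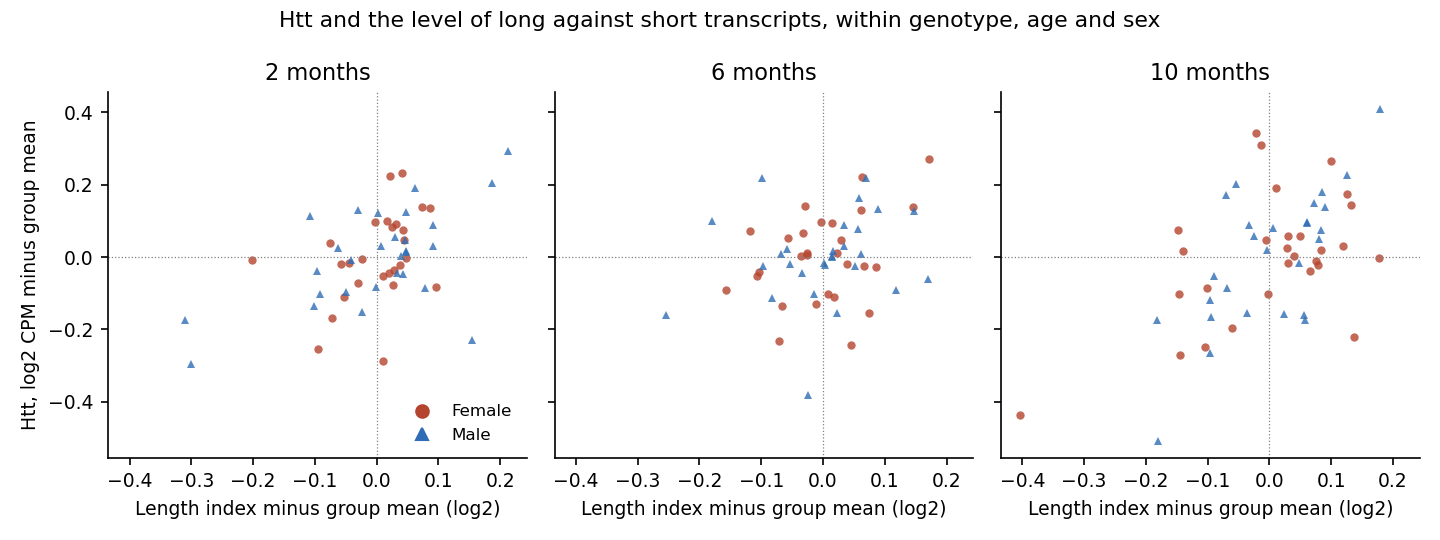
Htt (vertical axis, log2 CPM) against the length index (horizontal axis, log2), both minus the mean of their genotype, age and sex, for females (circles) and males (triangles) at 3 ages. Libraries with a higher index tend to have more Htt at 2 months (r = 0.50) and 10 months (r = 0.57), less so at 6 months (r = 0.27). At 2 and 10 months this restates the trend with exonic length that prompted the index.

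The mean of the index was −0.004 in Q175, 0.084 in Q20 and −0.006 in WT at 2 months, and 0.001, 0.022 and 0.038 in the same groups at 10 months. With the index as a covariate, an alternative added after the data were seen, the slopes of Htt at 2, 6 and 10 months were −0.25 ± 0.05 (adjusted p = 0.00952), −0.38 ± 0.04 (adjusted p = 8.28e-07) and −0.42 ± 0.05 (adjusted p = 1e-07). The folds of Q175 against WT were −0.40 ± 0.07 at 2 months (adjusted p = 0.000944), while at 10 months Q175 had −0.69 ± 0.08 (adjusted p = 2.79e-07). At 6 months the index averaged 0.107 in Q20 and −0.149 in WT, the widest gap between the groups of any age, and there the fold of Q20 against WT was 0.16 ± 0.08 with the index as a covariate and was no longer called (adjusted p = 0.177).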

How the data were processed

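Polyadenylated RNA from flash-frozen mouse liver was sequenced, per the labels' protocols, with HiSeq machines of Illumina, and base calls were made by CASAVA 1.8.2, per the submitters' processing notes. Aligner, quantifier, genome build and annotation were not given in the sources used here. Expected counts per gene were deposited by the authors, of which 14.1% were not whole and were rounded for the count models, and also FPKM per gene, deposited with 1 column per library. The labels do not state that each library is a separate animal, so p-values measure the spread between libraries. Symbols, lengths and positions came from GENCODE M21 (GRCm38), in which 37607 of 39179 identifiers matched, and the exon sequence from the same release.

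The count test was edgeR 4.0.16 under R 4.3.3 (TMM, filterByExpr on genotype and sex, glmQLFit, F test, Benjamini-Hochberg adjustment over all genes tested, threshold 0.05), with all 7 genotypes of an age and sex in the model. Slopes were fitted per 100 repeats in the knock-in lines with sex. The SE covers counting error and the spread between libraries together. Alternatives used DESeq2 1.42.0, limma 3.58.1 on log2(FPKM + 0.1) or log2(FPKM + 1), RLE scaling, library totals, no low-count filter, only the 2 groups compared, a replicate block, each sex alone, other scales of repeat length, and sets of libraries left out, among them the Q80 library M5 of 2 months, whose sex-linked genes went against its label, and libraries with Krt19 above 10, Acta1 above 1 or Hba-a1 above 1000 CPM. Co-varying genes were taken among genes tested at all 3 ages whose mean log2 CPM reached 1 or more, on log2(CPM + 0.5): the 6 with the highest and the 6 with the lowest r. The other genes named are the 3 tested genes nearest to Htt on each side and listed genes by smallest p. The count models were also tested on simulated data. Htt, the gene lists and the rules were chosen with earlier results of these data known. All libraries entered the main fits, and 0 library columns were identical.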

Additional observations from a re-analysis of the deposited data

How the results depend on the processing

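Of 33 results under the alternatives run, 0 called values changed direction. The slopes of Htt were called with DESeq2, RLE scaling, no low-count filter and both FPKM pseudocounts. The slope at 2 months was not called in females alone (−0.33, adjusted p = 0.0524), males alone (−0.22, adjusted p = 0.106) or without Q175 (−0.27, adjusted p = 0.191). For Q175 against WT the calls were lost in single sexes only, at 2 months in females (−0.50, adjusted p = 0.0561) and males (−0.32, adjusted p = 0.195) and at 10 months in males (−0.57, adjusted p = 0.103), with 4 Q175 and 4 WT libraries in each. Q111 at 10 months was not called with limma on log2(FPKM + 0.1) (−0.51) or log2(FPKM + 1) (−0.36), or in a fit of only those groups (−0.50, adjusted p = 0.584). The exact permutation test of Htt alone gave calls in Q111 (−0.24), Q140 (−0.22) and Q92 (−0.29) at 2 months and in Q140 (−0.47) and Q92 (−0.31) at 10 months. DESeq2 called Q140 at 10 months (−0.48, adjusted p = 0.0063) and Q92 at 2 months (−0.28, adjusted p = 0.0386) and 10 months (−0.34, adjusted p = 0.0499), and the length index as a covariate, added after the data were seen, Q140 at 10 months (−0.43, adjusted p = 0.0158), but no longer Q20 at 6 months (0.16, adjusted p = 0.177). With limma on FPKM the calls of Q140 against WT at 6 months (−0.22, adjusted p = 0.0544), of the slope among the 5 longer alleles at 6 months (−0.28, adjusted p = 0.107) and of sex at 6 and 10 months (−0.065 and −0.10) were lost, as was that of sex at 6 months with library totals (−0.079). The cause was not tested.

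With each Q20 or Q175 library left out in turn, and no library of the lines between, the slope ran from −0.28 to −0.26 at 2 months, −0.41 to −0.38 at 6 months and −0.44 to −0.39 at 10 months, and with each Q175 or WT library left out Q175 against WT ran from −0.42 to −0.37 at 2 months and −0.81 to −0.68 at 10 months, called in each of these fits. For the other lines only WT libraries were left out. Q140 at 10 months then ran from −0.55 to −0.43 and Q92 from −0.41 to −0.29, called without the WT male M4 and, for Q140, without the WT female F4. Deviations of libraries with the same replicate label had a median correlation of −0.015, 0.078 and −0.013 at 2, 6 and 10 months, against 0.007, −0.017 and 0.002 for other pairs. Not every pair was above 0.1 (51 of 162, 77 of 168 and 49 of 162 were). At 6 months the median was above that of other pairs, and some libraries with the same label carry the same index in their names. The labels were not taken as a pairing in the main fits. With a replicate block the slopes were −0.28, −0.39 and −0.42 and Q175 against WT −0.40 and −0.73, and no call changed. Htt had 496 to 1679 counts a library, and the shares of counting error and of the spread between libraries in its SE were not separated.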
